A study of Mus musculus with 12 samples.

Results

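The expression of 10 genes of the BCL2 family, which decide between survival and death of a cell at the mitochondrion, was followed in mouse pancreatic islets in the presence and absence of the prolactin receptor and in and out of pregnancy. The members were chosen by name and role: the survival genes Bcl2, Bcl2l1, Bcl2l2 and Mcl1, the effector genes Bax and Bak1, and the BH3-only genes Bad, Bbc3, Bcl2l11 and Bid. No probe set carries the symbol of Bax in the annotation used here, so 9 of the 10 genes were measured, out of 19938 genes that a probe set names alone and 35511 probe sets in all. Each of the 9 was read by 1 probe set that names it alone, and no other probe set held equal values. RefSeq places Bcl2 at chr1:106538176-106714290 (probe set 10357043), Bcl2l1 at chr2:152758732-152833803 (10488655), Bcl2l2 at chr14:54883366-54890858 (10415111) and Bak1 at chr17:27019812-27028627 (10449303) on GRCm38.p6. Where in the gene the probes lie was not examined. Islet RNA was measured on 12 Affymetrix MoGene_1.0_ST arrays, 3 in each of 4 groups of adult 129Sv mice: pregnant PRLR-/- mice on day 9.5 (PRLR-/- P9.5), pregnant PRLR+/+ mice on that day (PRLR+/+ P9.5), non-pregnant PRLR-/- mice (PRLR-/- NP) and non-pregnant PRLR+/+ mice (PRLR+/+ NP). PRLR-/- mice lack the receptor throughout the body and their females are sterile, and the pregnant ones received a progesterone pellet at the start of pregnancy. The study's methods give the pellet for this genotype only, so among pregnant mice the pellet and the genotype cannot be told apart. Within PRLR-/- mice the pellet and pregnancy cannot be told apart either. What is called a pregnancy effect in PRLR-/- islets below holds both, as do the difference and the mean of the genotypes' effects. The labels call the 3 arrays of a group biological replicates and do not say whether an array holds 1 mouse or several, so the p-values measure only the spread between these samples.

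Proteins of the BCL2 family share short BCL2 homology (BH) segments and act on the outer mitochondrial membrane. BAX and BAK1 form the pores through which cytochrome c leaves the mitochondrion, BCL2, BCL-xL (the product of Bcl2l1), BCL-w (of Bcl2l2) and MCL1 hold them in check, and the BH3-only proteins sense damage or lost growth signals and release that hold. The prolactin receptor, which binds prolactin and placental lactogen, signals through the kinase JAK2 and the transcription factor STAT5, and in cultured insulin-producing cells lactogens are known to raise BCL-xL through this route. Beta cells multiply in pregnant rodents, and a gain in cell number can come from division, from survival or from both. The comparisons below ask whether mRNA of the family differed with the receptor, with pregnancy, or with the 2 together.

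The promoters of the 4 genes below are shown because Bcl2, Bcl2l1 and Bcl2l2 were the members whose level differed between pregnant and non-pregnant islets of 1 genotype after adjustment over all probe sets, and because Bcl2l11 is a textbook target of FOXO factors. The sequences come from RefSeq on GRCm38.p6, are written 5′ to 3′ on the strand of the gene, and end at a listed transcription start or, for Bcl2l2, where the RefSeq gene begins. Capitals mark GGGCGG, the core bound by SP1, and GTAAACA, the core bound by forkhead factors such as FOXO3, each read on both strands.
Bcl2, chr1:106714291-106714540, minus strand: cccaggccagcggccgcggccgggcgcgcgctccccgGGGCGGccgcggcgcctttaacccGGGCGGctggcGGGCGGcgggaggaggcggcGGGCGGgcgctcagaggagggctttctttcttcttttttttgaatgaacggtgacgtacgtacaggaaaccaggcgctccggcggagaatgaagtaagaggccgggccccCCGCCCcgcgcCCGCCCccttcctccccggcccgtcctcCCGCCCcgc
Bcl2l1, chr2:152831729-152831978, minus strand: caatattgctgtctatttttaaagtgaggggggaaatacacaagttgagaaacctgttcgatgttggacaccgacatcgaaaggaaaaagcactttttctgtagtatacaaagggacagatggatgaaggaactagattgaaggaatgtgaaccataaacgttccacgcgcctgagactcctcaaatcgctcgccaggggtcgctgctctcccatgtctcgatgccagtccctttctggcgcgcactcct
Bcl2l2, chr14:54883175-54883365, plus strand: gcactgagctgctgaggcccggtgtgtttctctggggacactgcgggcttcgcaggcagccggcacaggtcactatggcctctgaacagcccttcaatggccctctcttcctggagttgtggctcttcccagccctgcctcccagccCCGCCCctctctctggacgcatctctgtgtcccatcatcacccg
Bcl2l11, chr2:128125788-128126037, plus strand: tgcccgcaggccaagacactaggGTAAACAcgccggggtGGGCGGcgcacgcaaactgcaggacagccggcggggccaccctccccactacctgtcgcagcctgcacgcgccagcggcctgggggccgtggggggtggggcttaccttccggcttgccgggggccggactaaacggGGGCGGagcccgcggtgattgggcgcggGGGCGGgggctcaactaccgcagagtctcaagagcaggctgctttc
The Bcl2, Bcl2l2 and Bcl2l11 stretches lie outside the span RefSeq gives the gene. The Bcl2l1 stretch is the most upstream of 3 windows listed for that gene and lies inside its span, and the table does not say whether it is exonic or intronic in longer transcripts. The Bcl2 promoter was the richest in GC, with 74.8% G or C, 36 CpG and 7 GGGCGG cores, while the Bcl2l1 stretch had 47.6% G or C, 12 CpG and no GGGCGG core. Across 16 windows of 300 bases around the starts of the 10 members, GGGCGG was present in 11, against 35.7% of the 32851 windows of all genes. GTAAACA was present in 2 of the 16, against 3.65% of all windows. These 2 were the Bcl2l11 window printed above, where the match begins 227 bases before the start, and 1 of the 3 windows of Bbc3, of which 2 overlap each other. TTCNNNGAA, the palindrome bound by STAT5, was in 0 of the 16, against 8.30% of all windows. CACGTG, the E-box bound by MYC and its relatives, was in 2 of the 16, those of Bax and Bbc3, against 7.15%. None of these matches overlapped a match of another motif in the stretches printed. A match is only a run of letters, and its absence says nothing of binding elsewhere in the gene.

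Islet identity and the labels were checked before the members were read. The 10 beta cell markers averaged 10.69 to 10.71 on the log2 scale in PRLR-/- P9.5, 10.66 to 10.79 in PRLR+/+ P9.5, 10.43 to 10.71 in PRLR-/- NP and 10.64 to 10.69 in PRLR+/+ NP arrays. These averages hold markers that went both ways with pregnancy, as given below. In the annotation used here none of the probe sets carries the symbol of Prlr, so the deleted gene was not checked here. As a check of receptor signalling, 6 genes known from earlier results of these data to follow the receptor (Cish, Socs2, Tph2, Cldn8, Ivd, Ehhadh) averaged 6.33 to 6.52 in PRLR-/- P9.5 and 8.30 to 8.53 in PRLR+/+ P9.5 arrays. Xist, the RNA that coats the inactive X chromosome of females, was at 3.8 in PRLR+/+ P9.5 replicate 2 and at 10 to 10.7 in the other 11 arrays. The 3 Y-linked genes measured (Kdm5d, Uty, Eif2s3y) were at 3.4 to 4.2 in that array and at 3.1 to 4.6 over all arrays. Without this array 0 members were called in any comparison, and for Bcl2, Bcl2l1, Bcl2l2, Mcl1 and Bak1 the values without it are given beside those with it where they changed a call or moved by over 1.5 times. The calls over all probe sets without it numbered 63 between genotypes at P9.5 (82 with it) and 2960 for pregnancy in PRLR+/+ islets (3528 with it). The 11 acinar markers, genes of the digestive enzyme cells around the islets, averaged 9.0 to 10.62 in PRLR-/- P9.5, 9.41 to 10.63 in PRLR+/+ P9.5, 10.67 to 11.54 in PRLR-/- NP and 10.33 to 10.83 in PRLR+/+ NP arrays.

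**Figure D1:**
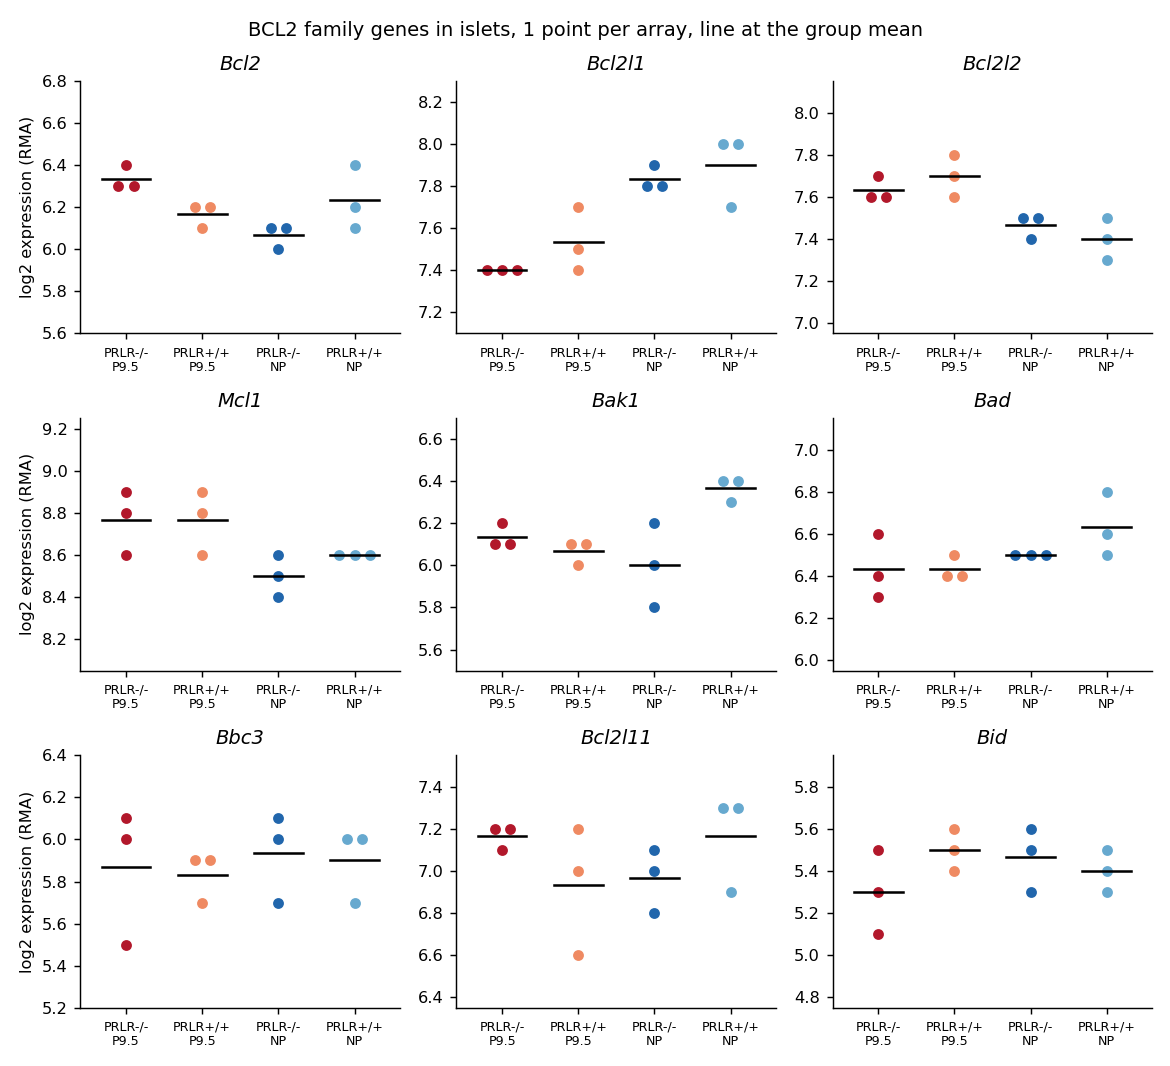
Log2 expression (y axis, robust multichip analysis, each panel spanning 1.2 log2 units) of the 9 measured members on each of the 12 arrays, 1 point per array, with the group mean as a line. Bcl2l1 is at 7.4 to 7.7 in the 6 P9.5 arrays and at 7.7 to 8.0 in the 6 NP arrays, and Bcl2l2 at 7.6 to 7.8 in P9.5 and 7.3 to 7.5 in NP arrays.

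No member passed the test between genotypes at P9.5. Between PRLR-/- P9.5 and PRLR+/+ P9.5 islets, 0 of 9 members passed a fold change of at least 1.5 with a Benjamini-Hochberg adjusted p under 0.05 in limma, the study's criterion for a called gene, against 82 (0.231%) of all probe sets. The study applied this criterion at P9.5 only to genes already known to change by that day, so the adjustment here covers more probe sets. None of the members had an unadjusted p under 0.05, where 5.42% of all probe sets did. The log2 fold changes of the members ran between -0.20 for Bid and 0.23 for Bcl2l11, with a median of 0.00, the same as that of all probe sets. Their 95% confidence intervals lay between -0.47 and 0.58. Single arrays moved these values: Bcl2l11 was at 0.37 without PRLR+/+ P9.5 replicate 3 and at 0.07 without PRLR+/+ P9.5 replicate 1, and Bid was at -0.30 without PRLR-/- P9.5 replicate 2 and at -0.10 without PRLR-/- P9.5 replicate 3. Bcl2l1 was at -0.13 on this scale (95% interval -0.37 to 0.10) and Mcl1 at 0.00 (-0.24 to 0.24). Without PRLR+/+ P9.5 replicate 2 the value of Bcl2l1 was -0.05, and without PRLR+/+ P9.5 replicate 3 it was -0.20. Without replicate 2 of that group Bcl2l2 was at -0.12, against -0.07 with it, and Mcl1 at 0.02. Bcl2 was at 6.4, 6.3 and 6.3 in PRLR-/- P9.5 and at 6.1, 6.2 and 6.2 in PRLR+/+ P9.5 islets. These Bcl2 values did not overlap, but the log2 fold change of 0.17 had an adjusted p of 0.977 in limma, and the exact two-sided permutation test gave 0.1, the smallest p that 3 arrays against 3 allow. Without PRLR+/+ P9.5 replicate 2, again 0 of 9 members were called. The islets are a mixture of cells, so fewer cells of a type and less mRNA per cell cannot be told apart in any of these values.

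In non-pregnant islets, too, 0 of 9 members were called between genotypes, against 36 (0.101%) of all probe sets. For this comparison the study reported Prlr alone as different. A fit of these 2 groups alone called 0 of all probe sets. Bak1, whose protein sits in the mitochondrial membrane and forms pores, was at 6.2, 6.0 and 5.8 in PRLR-/- NP and at 6.4, 6.3 and 6.4 in PRLR+/+ NP islets. All 3 PRLR-/- arrays were below all 3 PRLR+/+ arrays. The log2 fold change was -0.37 (SE 0.104, 95% interval -0.60 to -0.14), with an unadjusted p of 0.00452 and an adjusted p of 0.208 in limma, so that it did not pass over all probe sets. Bak1 was the 1 member with an unadjusted p under 0.05 here, where 12.3% of all probe sets had one. The other 8 members had log2 fold changes of -0.20 to 0.07.

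**Figure D2:**
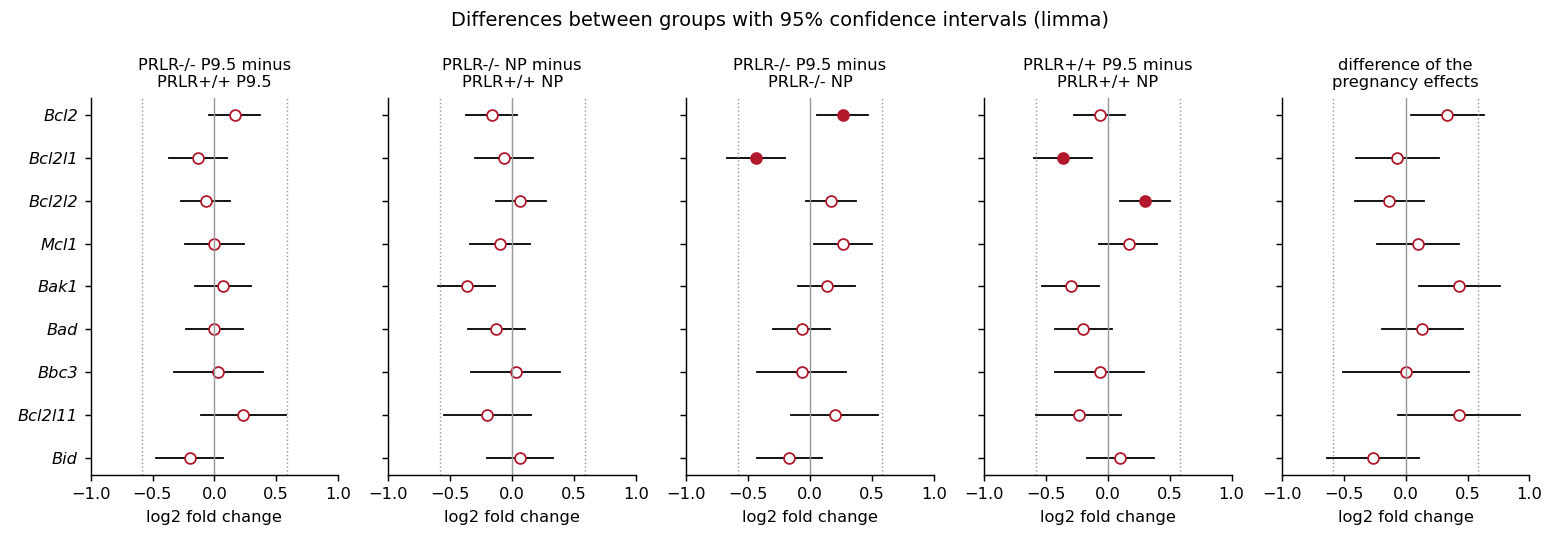
Log2 fold change of each member (points) with its 95% confidence interval (lines) in the 5 comparisons of the design, the fifth being the PRLR-/- minus the PRLR+/+ pregnancy effect. Filled points have an adjusted p under 0.05 over all probe sets and dotted lines mark a 1.5-fold change, which no member reached: the largest values are -0.43 for Bcl2l1 in PRLR-/- and 0.43 for Bak1 and Bcl2l11 in the difference of effects.

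With pregnancy, survival genes passed the adjusted p but not the fold change minimum. Called were 0 of 9 members in either genotype, against 5159 (14.5%) of all probe sets called in PRLR-/- and 3528 (9.93%) in PRLR+/+ islets. By the adjusted p alone, 1 member was higher and 1 lower at P9.5 in PRLR-/- islets, where 15.6% of all probe sets were higher and 17.7% lower. In PRLR+/+ islets 1 member was higher and 1 lower, where 11.5% of all probe sets were higher and 10.3% lower. The counts were thus near the share over the whole array. The median log2 fold change of the members was 0.13 in PRLR-/- and -0.07 in PRLR+/+ islets, beside -0.07 for all probe sets in both. The PRLR-/- and PRLR+/+ pregnancy comparisons share no arrays, and the PRLR-/- one holds the progesterone pellet as well as pregnancy. Of the calls over all probe sets, 51.2% were higher at P9.5 in PRLR-/- and 57.7% in PRLR+/+ islets, and these shares were 76.2% in PRLR-/- and 70.2% in PRLR+/+ islets when each array was centred on its median.

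Bcl2l1, which encodes BCL-xL, was lower at P9.5 in both genotypes. In PRLR-/- islets it was at 7.4, 7.4 and 7.4 at P9.5 and at 7.8, 7.9 and 7.8 in NP mice. The PRLR-/- groups did not overlap, and the log2 fold change was -0.43 (SE 0.108, 1.35-fold lower, adjusted p = 0.0105 in limma). In PRLR+/+ islets it was at 7.5, 7.7 and 7.4 at P9.5 and at 7.7, 8.0 and 8.0 in NP mice. These groups met at 7.7, a value shared by PRLR+/+ P9.5 replicate 2 and PRLR+/+ NP replicate 1, and the log2 fold change was -0.37 (SE 0.108, 1.29-fold lower, adjusted p = 0.0317). Without PRLR+/+ P9.5 replicate 2, the array with little Xist, it was -0.45 (adjusted p = 0.0245). The adjusted p in PRLR+/+ islets was above 0.05 when P9.5 replicate 1 or 3 or NP replicate 2 or 3 of that genotype was left out, with log2 fold changes of -0.35 to -0.30 and an adjusted p of up to 0.107, while in PRLR-/- islets it stayed under 0.05 without any 1 of the 12 arrays. With each array centred on its median the difference did not pass in PRLR-/- (-0.27, adjusted p = 0.111) or PRLR+/+ islets (-0.30, adjusted p = 0.104), and the fit of the PRLR+/+ groups alone did not pass either (adjusted p = 0.098). Both differences were under the 1.5-fold minimum. The pregnancy effects of the genotypes differed by -0.07 (95% interval -0.40 to 0.27, adjusted p = 0.921), and by 0.02 without PRLR+/+ P9.5 replicate 2. The order of the group means was PRLR-/- P9.5 at 7.40, PRLR+/+ P9.5 at 7.53, PRLR-/- NP at 7.83 and PRLR+/+ NP at 7.90, and within a stage the neighbours in this order did not differ beyond their spread.

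Bcl2l2 ran the other way. The gene encodes BCL-w, a survival protein best known from testis and neurons, and in PRLR-/- islets was at 7.7, 7.6 and 7.6 at P9.5 and at 7.4, 7.5 and 7.5 in NP mice. These groups did not overlap, but the log2 fold change of 0.17 did not pass (adjusted p = 0.175). In PRLR+/+ islets it was at 7.8, 7.6 and 7.7 at P9.5 and at 7.5, 7.3 and 7.4 in NP mice. All PRLR+/+ P9.5 values were above all PRLR+/+ NP values, with a log2 fold change of 0.30 (SE 0.0907, adjusted p = 0.0351), which was 0.35 (adjusted p = 0.0401) without PRLR+/+ P9.5 replicate 2. It did not pass without P9.5 replicate 1 or 3 or NP replicate 2 or 3 of that genotype (0.25 to 0.30, adjusted p up to 0.128). The difference between the genotypes' effects was -0.13 (95% interval -0.41 to 0.15, adjusted p = 0.776).

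Bcl2, the founding survival gene, gave opposite signs in the genotypes. In PRLR-/- islets it was at 6.4, 6.3 and 6.3 at P9.5 and at 6.1, 6.1 and 6.0 in NP mice, a log2 fold change of 0.27 (SE 0.0949, adjusted p = 0.0488) just inside the threshold. In PRLR+/+ islets it was at 6.1, 6.2 and 6.2 at P9.5 and at 6.4, 6.1 and 6.2 in NP mice, with overlapping groups and a log2 fold change of -0.07 (adjusted p = 0.65), which ran between -0.13 and 0.02 over the alternatives. The difference of the effects was 0.33 (SE 0.134, 95% interval 0.04 to 0.63), with an unadjusted p of 0.0293 and an adjusted p of 0.443. The effect of pregnancy on Bcl2 was therefore not shown to differ between genotypes. Without PRLR+/+ P9.5 replicate 2, which enters the shared spread, the adjusted p of Bcl2 in PRLR-/- islets was 0.0592, and it passed in only 2 of the 12 fits that left out 1 array, those without PRLR+/+ NP replicate 1 or 2 (0.23 to 0.28 over the 12, adjusted p up to 0.142).

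Mcl1, whose short-lived protein ties survival to growth factor supply, was at 8.6, 8.9 and 8.8 in PRLR-/- P9.5 and at 8.5, 8.6 and 8.4 in PRLR-/- NP islets. In PRLR+/+ islets it was at 8.9, 8.8 and 8.6 at P9.5 and at 8.6 on all 3 arrays in NP mice. The groups met at 8.6 in both genotypes. The log2 fold changes were 0.27 in PRLR-/- (adjusted p = 0.0767) and 0.17 in PRLR+/+ islets (adjusted p = 0.294), and neither passed.

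The effector Bak1 was highest in PRLR+/+ NP islets. In PRLR-/- mice it was at 6.1, 6.2 and 6.1 at P9.5, within the 6.2, 6.0 and 5.8 of NP mice, and the log2 fold change was 0.13 (adjusted p = 0.341). In PRLR+/+ mice it was at 6.1, 6.1 and 6.0 at P9.5, below the 6.4, 6.3 and 6.4 of NP mice, a log2 fold change of -0.30 (SE 0.104) with an unadjusted p of 0.0145 and an adjusted p of 0.0601, or -0.32 (adjusted p = 0.11) without PRLR+/+ P9.5 replicate 2. The difference of the effects was 0.43 (SE 0.148, 95% interval 0.11 to 0.76), with an unadjusted p of 0.0129 and an adjusted p of 0.375. Over all members, 0 of 9 were called for the difference of the effects, against 28 (0.0788%) of all probe sets, and 2 of 9 had an unadjusted p under 0.05, Bak1 and Bcl2, beside 9.85% of all probe sets. Of Bax, the other pore former, no value can be given.

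The BH3-only genes gave no difference past the threshold in any comparison. Bcl2l11, which encodes BIM and responds to loss of growth factors, was at 7.2, 7.2 and 7.1 in PRLR-/- P9.5 and at 6.6, 7.0 and 7.2 in PRLR+/+ P9.5 islets. It was at 6.8, 7.0 and 7.1 in PRLR-/- NP and at 6.9, 7.3 and 7.3 in PRLR+/+ NP islets. The spread within groups, up to 0.31 (SD, n = 3) in PRLR+/+ P9.5, was as large as the differences between them, and the difference of the pregnancy effects, 0.43 (95% interval -0.06 to 0.92), had an adjusted p of 0.559. Bbc3, which encodes PUMA, a p53 target, ran between 5.5 and 6.1 over the P9.5 arrays and between 5.7 and 6.1 over the NP arrays. Its log2 fold changes in the 4 pairwise comparisons were -0.07 to 0.03. Bad, whose protein is inactivated by phosphorylation downstream of AKT, was at 6.3 to 6.6 at P9.5 and at 6.5 to 6.8 in NP mice, with a log2 fold change of -0.07 in PRLR-/- (adjusted p = 0.646) and -0.20 in PRLR+/+ islets (adjusted p = 0.192). Bid, cleaved by caspase 8 to link death receptors to mitochondria, was at 5.1 to 5.6 at P9.5 and at 5.3 to 5.6 in NP mice. Its pregnancy log2 fold changes were -0.17 in PRLR-/- (adjusted p = 0.307) and 0.10 in PRLR+/+ islets (adjusted p = 0.588). The regulation of Bad and Bid is largely at the protein level, which these arrays do not measure.

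Since the signs of Bcl2l1, Bcl2l2 and Mcl1 were shared by both genotypes, the mean of the 2 pregnancy effects was also tested, a comparison added after the values had been seen. Again 0 of 9 members were called, against 4107 (11.6%) of all probe sets, of which 58.1% were higher at P9.5, or 75.8% after median centring. By the adjusted p alone 2 members were higher, beside 20.2% of all probe sets, and 1 was lower, beside 25.3%. Bcl2l1 was lower with a log2 fold change of -0.40 (SE 0.0764, 95% interval -0.57 to -0.23, adjusted p = 0.0015). Bcl2l2 was higher by 0.23 (SE 0.0642, adjusted p = 0.0118), with 7.6 to 7.8 in the 6 P9.5 arrays and 7.3 to 7.5 in the 6 NP arrays. Mcl1 was higher by 0.22 (SE 0.0764, adjusted p = 0.0368), and without PRLR+/+ P9.5 replicate 2 by 0.21 (adjusted p = 0.072). Mcl1 passed in 3 of the 12 fits that left out 1 array, those without PRLR-/- P9.5 replicate 1, PRLR+/+ P9.5 replicate 3 or PRLR-/- NP replicate 2 (0.18 to 0.26 over the 12, adjusted p up to 0.0884).

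**Figure D3:**
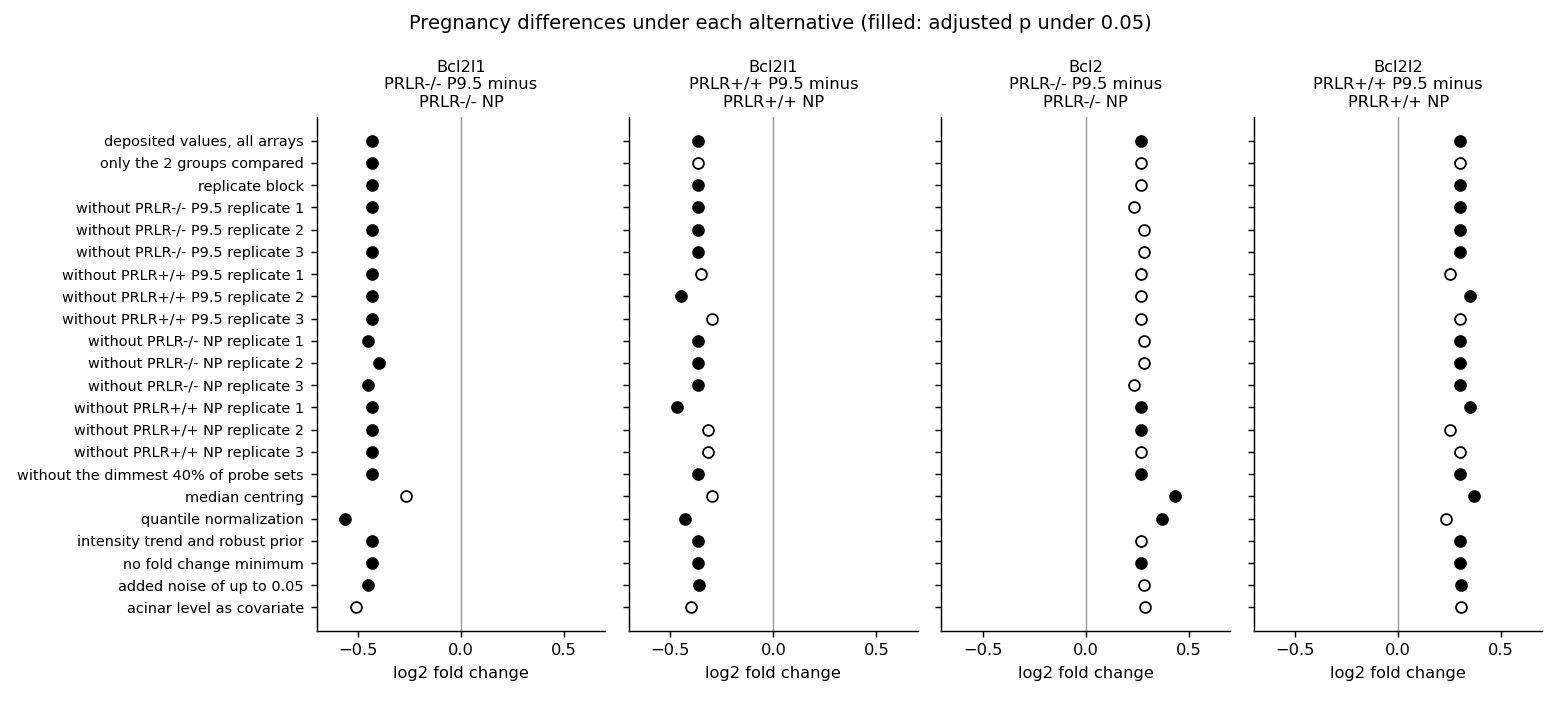
Log2 fold change at P9.5 against NP (x axis) of Bcl2l1, Bcl2l2 and Bcl2 under each way of processing (rows), filled where the adjusted p is under 0.05. In the 4 panels drawn (Bcl2l1 in each genotype, Bcl2 in PRLR-/- and Bcl2l2 in PRLR+/+ islets) the sign is the same in every row, between -0.56 and -0.27 for Bcl2l1 in PRLR-/- and between -0.47 and -0.30 in PRLR+/+ islets, whereas Bcl2 in PRLR-/- islets passes in 6 of 21 alternatives.

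Of the 15 measured relatives of the members (of 18 listed), 1 rose in each genotype at P9.5 and none fell. Of all probe sets, 7.44% rose and 7.09% fell in PRLR-/- islets, and 5.73% rose and 4.21% fell in PRLR+/+ islets. Bnip3, a mitochondrial receptor for autophagy that hypoxia induces, rose in PRLR+/+ islets by 0.60 on the log2 scale (adjusted p = 0.0041). It was at 8.5, 8.4 and 8.4 in PRLR+/+ P9.5 and at 7.9, 7.9 and 7.7 in PRLR+/+ NP islets. In PRLR-/- islets its log2 fold change was 0.23 (adjusted p = 0.136), and the difference of the effects was -0.37 (adjusted p = 0.487). Bcl2l13, another mitochondrial receptor for autophagy, rose in PRLR-/- islets by 0.60 (adjusted p = 0.00208) and stood at 0.27 in PRLR+/+ islets (adjusted p = 0.104). Both calls are close to the 1.5-fold minimum, and both were lost under quantile normalization. Among BH3-only relatives under the fold change minimum, Hrk was lower in PRLR-/- islets (-0.57, adjusted p = 0.0132) and Bik in PRLR+/+ islets (-0.43, adjusted p = 0.0465). The median of the 15 was -0.07 in PRLR-/- and -0.03 in PRLR+/+ islets, near the -0.07 of all probe sets.

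Some inhibitors of apoptosis outside the BCL2 family rose at P9.5 in both genotypes. Of 11 measured (of 12 listed), 4 rose and 0 fell at P9.5 in PRLR-/- islets, and 4 rose and 0 fell in PRLR+/+ islets, with median log2 fold changes of 0.50 in PRLR-/- and 0.47 in PRLR+/+ islets beside -0.07 for all probe sets. Over all probe sets, 7.44% rose in PRLR-/- and 5.73% in PRLR+/+ islets. Under the fold change minimum, Tmbim6, which encodes BAX inhibitor 1, was lower in PRLR+/+ islets (-0.40, adjusted p = 0.00841). Cflar, which encodes the caspase 8 decoy cFLIP, rose in PRLR-/- islets to 8.3, 8.0 and 8.5 at P9.5, against 6.8, 7.1 and 7.3 in NP mice, a log2 fold change of 1.20 (SE 0.143, adjusted p = 0.00019). In PRLR+/+ islets it was at 8.0, 7.9 and 7.9 at P9.5 and at 7.1, 7.1 and 7.2 in NP mice, a log2 fold change of 0.80 (SE 0.143, adjusted p = 0.00289). The PRLR-/- minus PRLR+/+ difference of these effects was 0.40 (adjusted p = 0.55). Birc2, the ubiquitin ligase cIAP1, rose by 0.77 in PRLR-/- and by 0.63 in PRLR+/+ islets, and Faim, an inhibitor of FAS signalling, by 0.63 in PRLR-/- and by 0.73 in PRLR+/+ islets. Xiap, the direct caspase inhibitor, rose in PRLR-/- islets (0.60, adjusted p = 0.0169) and Naip2 in PRLR+/+ islets (0.60, adjusted p = 0.0021). Naip2 was also higher in PRLR-/- islets by the adjusted p alone. Xiap averaged 7.20 in PRLR+/+ P9.5 and 6.73 in PRLR+/+ NP islets and did not pass there. None of the 11 was called between genotypes at either stage or for the difference of the effects. Without PRLR+/+ P9.5 replicate 2, 3 of the 11 rose in PRLR+/+ islets, Birc2 no longer passing.

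Of 13 measured caspase and apoptosome genes, 3 rose in PRLR-/- islets (Cycs, Casp8 and Aifm1) and 2 in PRLR+/+ islets (Cycs and Casp8), and none fell. Aifm1 was also higher in PRLR+/+ islets by the adjusted p alone. The shares of all probe sets that rose were 7.44% in PRLR-/- and 5.73% in PRLR+/+ islets. With the acinar level of each array as a covariate, described below, 0 of the 13 rose in PRLR-/- and 2 in PRLR+/+ islets. In PRLR-/- islets that covariate runs with pregnancy, and the 2 cannot be told apart. Cycs, which encodes the cytochrome c that BAX and BAK1 release and that also serves respiration, rose by 0.73 in PRLR-/- islets (adjusted p = 0.00357) and by 0.83 in PRLR+/+ islets (adjusted p = 0.00281). Casp8, the initiator caspase of death receptors, rose by 0.70 in PRLR-/- and by 0.80 in PRLR+/+ islets. Of 14 death receptor genes and adaptors, Tnfsf10, the ligand TRAIL, rose in both genotypes, by 1.03 in PRLR-/- (adjusted p = 0.00287) and by 0.63 in PRLR+/+ islets (adjusted p = 0.0428), and none fell. A count of 1 in 14 is near the shares of all probe sets that rose. The PRLR+/+ call of Tnfsf10 was lost without PRLR+/+ P9.5 replicate 2.

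Among 15 genes listed as mitochondrial partners, 3 rose in each genotype and none fell. Beside them, 7.44% of all probe sets rose in PRLR-/- and 5.73% in PRLR+/+ islets. Vdac3, a channel of the outer membrane, rose by 0.87 in PRLR-/- (adjusted p = 0.000487) and by 0.93 in PRLR+/+ islets (adjusted p = 0.000702). Ppid, a mainly cytosolic cyclophilin and so not a membrane partner, rose by 0.63 in PRLR-/- and by 0.73 in PRLR+/+ islets. Dnm1l, which divides mitochondria, rose in PRLR-/- islets (0.60) and Mfn1, which fuses them, in PRLR+/+ islets (0.63). In the other genotype each passed the adjusted p but not the fold change minimum. Of 21 upstream regulators, 3 rose in PRLR-/- islets, and 1 rose and 1 fell in PRLR+/+ islets. Hspa5, the chaperone BiP of the endoplasmic reticulum, rose by 0.97 in PRLR-/- (adjusted p = 0.000238) and by 0.77 in PRLR+/+ islets (adjusted p = 0.00147). Mdm2, which restrains p53, and Mapk8, the kinase JNK1, rose in PRLR-/- islets, and Pim3, a kinase that phosphorylates BAD, fell in PRLR+/+ islets (-0.60, adjusted p = 0.00349). Under the fold change minimum, Mdm2 also passed the adjusted p in PRLR+/+ and Pim3 in PRLR-/- islets, while Mapk8 did not pass in PRLR+/+ islets. The Pim3 and Mfn1 calls were lost without PRLR+/+ P9.5 replicate 2. Of the first steps of the receptor's signal, Jak2 was not called in any comparison, and Stat5b was lower in PRLR+/+ islets at P9.5 under the fold change minimum (-0.33, adjusted p = 0.02). None of these lists had a call between genotypes at either stage or for the difference of the effects.

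**Figure D4:**
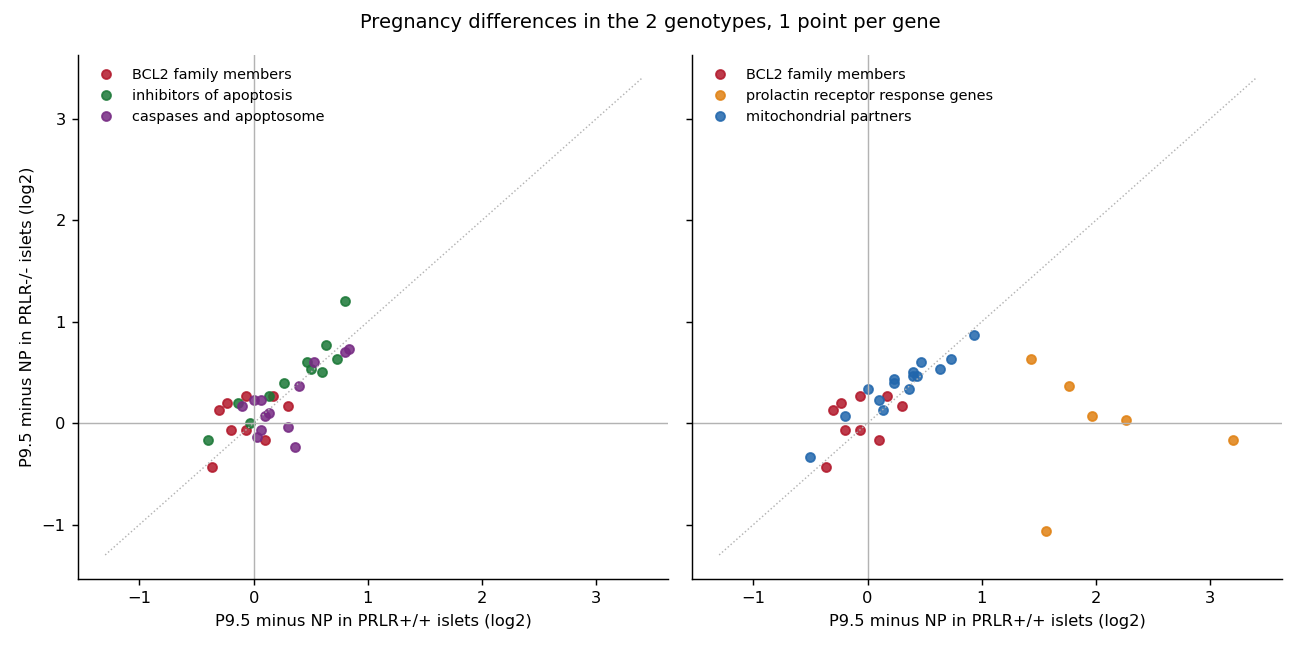
Log2 fold change at P9.5 against NP in PRLR-/- islets (y axis) and in PRLR+/+ islets (x axis), 1 point per gene, with equal effects on the dotted line. The BCL2 members lie within 0.43 of 0 on both axes, Cflar, an inhibitor of apoptosis, is at 1.20 in PRLR-/- and 0.80 in PRLR+/+ islets, and Socs2, a receptor response gene, at 0.07 in PRLR-/- and 1.97 in PRLR+/+ islets.

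The receptor response genes give the scale of a difference between genotypes on the same arrays. Socs2, a feedback inhibitor of cytokine receptors and a direct product of STAT5 signalling, was at 7.4, 7.6 and 7.5 in PRLR-/- P9.5 and at 9.3, 9.2 and 8.8 in PRLR+/+ P9.5 islets, a log2 fold change of -1.60 (adjusted p = 0.00195). This list was chosen on these data, so its 6 of 6 lower genes are no independent evidence. In PRLR-/- islets Ehhadh rose and Cish fell at P9.5, and Ivd was higher by the adjusted p alone. For the difference of the effects 4 of the 6 were called, Socs2, Tph2, Cldn8 and Ivd. Beside the list, the log2 fold changes of the BCL2 members between genotypes at P9.5 were -0.20 to 0.23 with all arrays, and -0.30 to 0.37 over the fits that left out 1 array.

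Some mRNA markers of other cell types and of division differed with pregnancy beside these genes. Of the 11 acinar markers, 9 fell at P9.5 in PRLR-/- islets (median log2 fold change -1.47) and 0 in PRLR+/+ islets (median -0.67). The array averages of the list given above did not overlap between P9.5 and NP in PRLR-/- mice and did in PRLR+/+ mice. Of the 10 beta cell markers, Ucn3 and Neurod1 rose in both genotypes, and Nkx6-1 and Mafa fell in PRLR+/+ islets alone by this test. Nkx6-1 was at -0.37 in PRLR-/- (adjusted p = 0.0591) and -0.73 in PRLR+/+ islets (adjusted p = 0.00369), and Mafa at -0.30 in PRLR-/- (adjusted p = 0.144) and -0.67 in PRLR+/+ islets (adjusted p = 0.00938), and none of the beta cell markers was called for the difference of the effects. The PRLR+/+ calls of Ucn3 and Neurod1 were lost without PRLR+/+ P9.5 replicate 2, and those of both genotypes with the acinar covariate. Of the other lists, in PRLR-/- islets Muc1 of 7 ductal markers fell and Tek of 10 endothelial markers rose, and in PRLR+/+ islets Krt7, Krt8, Plvap and Eng fell. Of 9 immune markers, H2-Aa rose in PRLR-/- and Cd74 fell in PRLR+/+ islets, and of 9 stromal markers 0 were called. Cd74 also passed the adjusted p alone in PRLR-/- islets, and none of these lists had a call for the difference of the effects. Beside these lists, 7.44% of all probe sets rose and 7.09% fell in PRLR-/- islets, and 5.73% rose and 4.21% fell in PRLR+/+ islets. No list was tested against these shares. With the acinar average of each array as a covariate, chosen after the data were seen, the log2 fold change of Bcl2l1 was -0.51 in PRLR-/- (adjusted p = 0.0774) and -0.40 in PRLR+/+ islets (adjusted p = 0.0508), against -0.43 in PRLR-/- and -0.37 in PRLR+/+ islets without it. The mean of both effects of Bcl2l1 was -0.46 and passed (adjusted p = 0.0196), but the other survival genes did not pass with the covariate. The mean of both effects of Mcl1 was 0.08 (adjusted p = 0.632), against 0.22 without the covariate, and that of Bcl2l2 was 0.24 (adjusted p = 0.107). Bcl2l2 in PRLR+/+ islets was at 0.31 (adjusted p = 0.0759) and Bcl2 in PRLR-/- islets at 0.28 (adjusted p = 0.244). Under this covariate 1 of 11 inhibitors of apoptosis (Cflar) rose in PRLR-/- and 3 in PRLR+/+ islets. Over all probe sets the calls numbered 2099 in PRLR-/- (5159 without it) and 2715 in PRLR+/+ islets (3528 without it). The acinar averages run with pregnancy, without overlap in PRLR-/- islets. A pass lost with the covariate therefore cannot tell acinar RNA from pregnancy. Of 9 cell cycle genes, Pcna, Mki67 and Top2a rose in PRLR-/- islets and Pcna in PRLR+/+ islets. None of the 9 was called between genotypes at P9.5 or for the difference of the effects. Whether division contributed to the values of the members was not tested.

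The genes most like Bcl2l1 over the 12 arrays, by the root mean square difference of values centred on each gene's mean, were Rexo1 (0.064), Sstr3 (0.0687), Srf (0.0759), Ror2 (0.0759) and Ripor1 (0.0764), out of 12865 genes that varied at least as much. Sstr3, a somatostatin receptor, was at 8.0 to 8.3 in P9.5 and at 8.4 to 8.8 in NP islets, with log2 fold changes of -0.37 in PRLR-/- and -0.43 in PRLR+/+ islets. Srf, the serum response factor, was at 6.9 to 7.1 in P9.5 and at 7.3 to 7.6 in NP islets. All 5 were picked for this pattern, and their values are a description.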

How the data were processed

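The authors hybridised islet RNA to Affymetrix MoGene_1.0_ST arrays and made the deposited log2 values by robust multichip analysis in aroma.affymetrix, which corrects background, normalizes by quantiles and summarises probe sets. The values are rounded to 0.1, so a difference of that size is 1 step. The build the probe sets were designed on is not given in the sources used here. Gene symbols came from the platform annotation (21789 probe sets with 1 symbol, 1621 with several, 12101 with none), and promoters and gene spans from RefSeq on GRCm38.p6.

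In R 4.3.3 with limma 3.58.1, 4 group means were fitted to all 35511 probe sets and all 12 arrays (lmFit, eBayes, two-sided), with Benjamini-Hochberg adjustment over all probe sets. Called means a fold change of at least 1.5 and an adjusted p under 0.05, after the study's methods. The model was tested on simulated data. A gene was read by its probe set of highest mean. Named were all members, up to 4 called genes per list and comparison by size, the 5 genes most like Bcl2l1 and the response genes. Hrk, Bik, Jak2, Stat5b, Tmbim6 and genes named for the Xist check were added after their values were seen. The members and lists were chosen with earlier results of these data known. Alternatives were leaving out each array, fitting only the 2 groups compared, blocking on replicate number, centring on medians, normalizing by quantiles, a robust eBayes prior with a trend on intensity, leaving out the dimmest 40% of probe sets, dropping the fold change minimum and adding noise of up to 0.05. The acinar covariate and the mean of both pregnancy effects were added after seeing the data.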

Additional observations from a re-analysis of the deposited data

How the results depend on the processing

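No member was called under any alternative that kept the fold change minimum, each array left out included (lowest and highest count 0 in all 6 comparisons). Without the minimum, 2 members passed in PRLR-/- (Bcl2, Bcl2l1), 2 in PRLR+/+ (Bcl2l1, Bcl2l2) and 3 for the mean of both effects (Bcl2l1, Bcl2l2, Mcl1). Of 1116 recomputed member fold changes, 44 lost and 7 gained an adjusted p under 0.05, 0 reversed with either value passing, and 41 changed sign with neither passing. Dropping the fold change minimum leaves every adjusted p as it was. Leaving out an array outside the 2 groups compared leaves the fold change as it was and changes only the shared spread. The counts of alternatives below hold these fits too, so not each is a separate check. Bcl2l1 passed in 19 of 21 alternatives in PRLR-/- (not with median centring, -0.27, or the acinar covariate, -0.51), in 14 of 21 in PRLR+/+ (lost with the fit of 2 groups, median centring, the covariate, and when PRLR+/+ NP replicate 2 or 3, or P9.5 replicate 1 or 3, was left out, highest adjusted p 0.107) and in 20 of 20 for the mean (-0.50 to -0.28). Bcl2l2 passed in 14 of 21 in PRLR+/+ (0.23 to 0.37) and in 18 of 20 for the mean (0.144 under quantile normalization), Bcl2 in 6 of 21 in PRLR-/- (0.23 to 0.43), and Mcl1 in 9 of 20 for the mean (0.06 to 0.33). Median centring put the median of all probe sets in PRLR-/- pregnancy at 0.1, against -0.07 as deposited, and there Bcl2l2 (0.33) and Mcl1 (0.43) passed too. Bak1 passed in PRLR+/+ pregnancy in 3 of 21 (-0.33 to -0.23).

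Over all probe sets, the counts of calls ranged over the alternatives between 39 and 89 for genotype at P9.5 (82), 0 and 172 in NP mice (36; 0 in the fit of 2 groups, 172 without PRLR+/+ NP replicate 2), 2099 and 11846 for pregnancy in PRLR-/- (5159; 2099 with the acinar covariate), 2715 and 7745 in PRLR+/+ (3528), 16 and 63 for the difference of effects (28), and 2839 and 16169 for the mean (4107). Median centring moved the share of higher calls between NP genotypes to 69.7%, against 91.7%. Of 18 pairs of arrays with the same replicate number in different groups, 7 had deviations from the group mean that correlated over 0.1 (-0.114 to 0.227). Pairs with different numbers were not compared, so whether the numbers mark pairs was not settled. The main fit did not use them as pairs. With a replicate block 0 members were called, Bcl2l1 was at -0.43 in PRLR-/- (adjusted p = 0.0122) and -0.37 in PRLR+/+ (adjusted p = 0.0333), and Bcl2 in PRLR-/- had an adjusted p of 0.0629. The block gave 67, 29, 5269, 3606, 23 and 4150 calls over all probe sets in the order above. With 3 arrays a group and steps of 0.1, differences of the size seen here are at the limit of what these arrays resolve.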
